A study of Mus musculus with 5 samples.

Results

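The deposited catalogue of long noncoding RNAs (lncRNAs) of the adult mouse brain holds 8992 transcripts, and 2496 of them are described here: those of at least 200 bases that the authors tied to no reference transcript and that have 1 or 2 exons. The choice used the authors' annotation and no expression value. Of the 2496 members, 32 had 1 exon and 2464 had 2 exons, and they lay in 2048 loci as the authors grouped them. A locus held 1 member in 1716 cases, and the other 332 loci held up to 7 members, so that members of a locus share sequence and are not independent. The deposited table gives a level for each member in 5 RNA sequencing libraries as FPKM, the sequenced fragments divided by transcript length in kilobases and by the library's mapped fragments.

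The libraries came from polyadenylated RNA of 4 dissected regions, with no genotype or treatment difference between them. All mice were adult wild-type males of the C57BL/6 strain, and how many animals a sample holds is not stated in the sources used here. The subventricular zone (SVZ), the neural stem cell niche along the lateral ventricle, had 2 samples labelled as biological replicates. The olfactory bulb (OB), to which SVZ-born neurons migrate, the dentate gyrus (DG), the neurogenic layer of the hippocampus, and the striatum (STR), the non-neurogenic control, had 1 sample each. The regional markers followed the labels: Calb2 was at 656 FPKM in OB, the dentate granule gene C1ql2 at 217 FPKM in DG, and the ependymal gene Foxj1 at 61.0 FPKM in SVZ sample 1 and 23.5 in SVZ sample 2. The SVZ samples also held the striatal projection neuron gene Drd1a at 108 and 119 FPKM, beside 158 FPKM in STR. Across the members, SVZ sample 2 resembled STR more than it did SVZ sample 1, and results that rest on this are given with each SVZ sample alone. FPKM values carry no read counts, so the depth is unknown, and a transcript at 0 is described as listed at 0.

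Long noncoding RNAs are transcribed and spliced like messenger RNAs but code for no known protein. Many start close to a coding gene on the other strand, share its promoter region and follow its expression, while others are transcribed far from any coding gene. Transcripts assembled from short reads can also come from pseudogenes, copies of genes that lie elsewhere in the genome, whose reads may be placed at either copy. In the adult brain, lncRNAs are known for expression patterns that are narrower across regions and cell types than those of coding genes.

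The sequences below show the exon junctions of 5 members whose single intron had the same length as an intron of a GENCODE M21 transcript at the matching place (mm10, GRCm38). These are the members set beside their coding neighbours further on. Each line is 60 bases of the spliced GENCODE transcript, 5′ to 3′, with the last 2 bases of the first exon and the first 2 of the second in capitals.
Gm12688: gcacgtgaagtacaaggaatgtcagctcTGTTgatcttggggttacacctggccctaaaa
Gm13716: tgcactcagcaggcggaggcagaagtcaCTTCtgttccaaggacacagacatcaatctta
Gm15723: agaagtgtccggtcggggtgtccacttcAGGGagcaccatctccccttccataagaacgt
2700033N17Rik: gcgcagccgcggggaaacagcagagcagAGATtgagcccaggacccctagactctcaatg
2810468N07Rik: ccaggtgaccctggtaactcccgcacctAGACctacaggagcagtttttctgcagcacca

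Of these junctions 3 end the first exon in AG, the usual last bases of an exon, and that of Gm15723 continues with G. Over all 1076 members with such a matching intron, the first exon ended in AG in 57.6%, the second exon began with G in 48.6%, and both held in 29.6%. Over 32927 introns of GENCODE long noncoding transcripts the shares were 56.8%, 46.2% and 26.4%. Each share lay within a few percentage points of that of the annotated noncoding introns.

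A second set of sequences belongs to the most abundant locus, which lay on chromosome 1 between Col19a1 and Lmbrd1 (mm9, chr1:24622509-24623031, minus strand). It matched the GENCODE pseudogene Gm29216, which aligned to mt-Co1, the mitochondrial gene for a subunit of cytochrome c oxidase, with 99.8% identity and 1 mismatch over 483 bases. A stretch of 120 aligned bases that holds that mismatch near its start is shown, with the differing base in capitals.
Gm29216: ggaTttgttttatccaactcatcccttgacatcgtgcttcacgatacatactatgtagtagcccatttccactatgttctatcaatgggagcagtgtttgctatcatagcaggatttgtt
mt-Co1: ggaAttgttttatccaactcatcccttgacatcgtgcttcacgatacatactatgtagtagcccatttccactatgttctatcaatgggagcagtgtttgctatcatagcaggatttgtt

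The members were short in exon and in intron. The spliced length had a median of 795.5 bases and ran from 200 to 22911, beside a median of 996 bases for the 2369 catalogue transcripts of 3 or more exons with no reference. The single intron had a median of 1584.5 bases. It was under 100 bases in 126 members, the shortest being 12 bases, and over 10000 bases in 361. The second exon was the longer one in 1667 members (67.7%), with median exon lengths of 218 and 455 bases. An exon under 30 bases occurred in 92 members. The longest spliced member, TCONS_00025016, spanned 23534 bases of chromosome 5 with an intron of 623 bases, and its nearest coding start was that of Hnrnpd, an RNA-binding protein gene, 248247 bases away. The longest span, 334608 bases on chromosome 12, belonged to TCONS_00006681, which was at or below 0.158 FPKM in every library. TCONS_00012247, one of the 3 members with the shortest spliced length of 200 bases, and the shortest span, the single-exon TCONS_00008267 with 243 bases, were listed at 0 in all 5 libraries.

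Both strands were used about equally, with 1265 members on the plus and 1231 on the minus strand. Chromosomes 2, 4 and 11 held the most members, with 263, 222 and 185. Per 100 coding genes the densest were chromosomes 12 (21.4 members) and 13 (20.8), and the sparsest was chromosome 9 (7.86). A total of 119 members overlapped a RefSeq coding locus, 34 on its strand and 94 on the other, some with both. The extents and starts of coding loci were those of the deposited loci, which can take in neighbouring transcripts. All overlaps with coding genes and distances to coding starts are therefore to the deposited locus and may differ from those to the gene's own transcript. The nearest coding start lay at a median of 34461.5 bases, and 612 members had none within 100000 bases. Whether the libraries kept the strand is not stated in the sources used here, so that reads of overlapping transcripts on opposite strands cannot be told apart.

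Although the members were taken for having no reference, 1172 of them (47.0%) had a same-strand counterpart in the later GENCODE M21 annotation, in 1046 genes. A counterpart had an intron of identical length at a like distance from a shared flanking coding gene, or covered at least 50% of the spliced length when placed by its flanks, so no coordinate was carried between builds. The largest class was lincRNA, intergenic lncRNA, with 674 members, followed by antisense transcripts with 180 and processed transcripts with 132. Another 66 fell on protein-coding genes, 3 on a ribosomal RNA gene, and 77 on pseudogenes, 70 of these on the pseudogene's strand. The 1318 members with neither a same-strand counterpart nor a pseudogene on either strand were more often detected than the lincRNA counterparts: 34.9% against 20.8% reached 1 FPKM in any library, and the medians of the highest level were 0.649 and 0.218 FPKM. Single-exon members were counterparts of pseudogenes in 9 of 32 cases.

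Most members were scarce. At 1 FPKM or more there were 453 in SVZ sample 1 (18.1%), 392 in SVZ sample 2 (15.7%), 352 in OB (14.1%), 357 in DG (14.3%) and 385 in STR (15.4%). The median level was 0.196 FPKM in SVZ sample 1 and 0.142 in SVZ sample 2, 0.140 in OB, 0.103 in STR and 0 in DG. The DG library thus listed more members at 0, 1722, than the other libraries with 792 to 945. This excess was also seen beyond the members. Of all 37142 transcripts, DG listed 16725 at 0 and the other libraries 9564 to 10807. Of 25975 RefSeq coding transcripts, DG listed 8713 at 0 and the other libraries 4675 to 5751. The 5th percentile of the members' values above 0 was 0.0285 FPKM in DG and 0.0137 to 0.0227 in the other libraries. For RefSeq coding transcripts it was 0.161 FPKM in DG and 0.0177 to 0.0376 in the other libraries. The part of these low values in the DG results was not tested.

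In all, 782 members (31.3%) reached 1 FPKM in at least 1 library, 77 reached 10 FPKM and 14 reached 100 FPKM. Another 420 members (16.8%) were listed at 0 in all 5 libraries. Among transcripts of 3 or more exons with no reference, 18.8% reached 1 FPKM and 36.9% were listed at 0 throughout, while 67.5% of RefSeq coding transcripts reached 1 FPKM. Within each length class, too, members reached 1 FPKM more often than transcripts of 3 or more exons. At the edge of the exon rule, members with 2 exons had medians of 0.196, 0.142, 0.140, 0 and 0.103 FPKM in SVZ samples 1 and 2, OB, DG and STR, and transcripts with exactly 3 exons had 0.00132, 0, 0.0190, 0 and 0. In the length class from 500 to below 1000 bases, 25.8% of 799 members and 13.9% of 846 transcripts of 3 or more exons reached 1 FPKM in any library. Transcripts of a library are not replicates, so these shares are a description with no test.

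**Figure D1:**
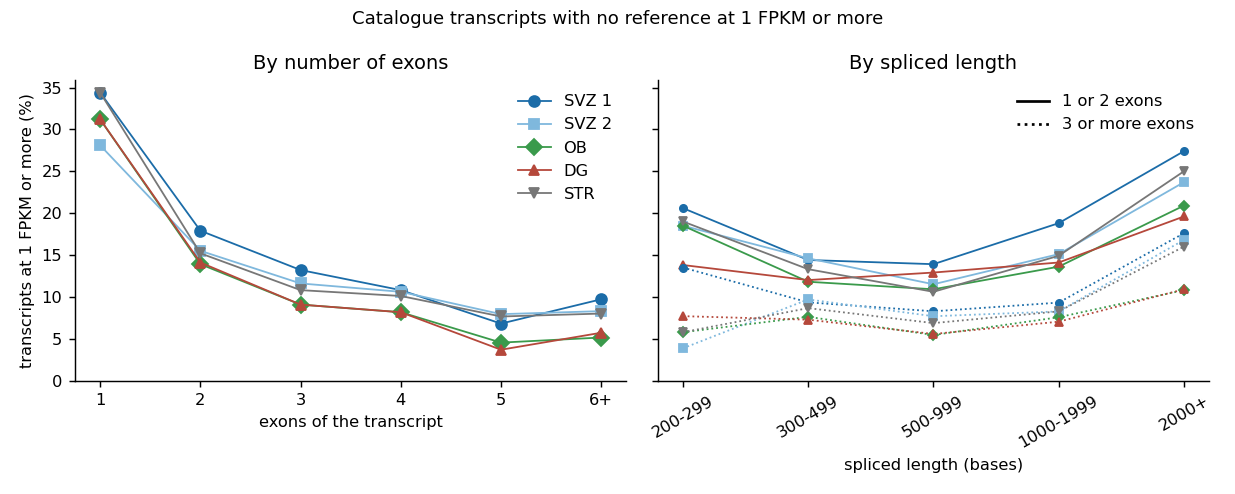
Share of catalogue transcripts with no reference that reached 1 FPKM in each library (percent, y axis), by number of exons (left) and by spliced length in bases (right), with members as solid lines and transcripts of 3 or more exons as dotted lines on the right. In every length class the solid line of a library lies above its dotted line, and by exon number the share goes from 13.9% to 17.9% at 2 exons to 9.07% to 13.2% at 3.

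Detection at 1 FPKM was narrow across regions. Of the members at 1 FPKM or more in at least 1 region, taking the SVZ as the mean of its samples, 41.4% reached that level in 1 region and 21.2% in all 4. The values were 9.66% and 72.0% for RefSeq coding transcripts, and 41.3% and 19.1% for transcripts of 3 or more exons with no reference. Members at 1 FPKM or more in DG alone numbered 94, in OB alone 82, in the SVZ alone 65 and in STR alone 52. In the same order the numbers were 50, 39, 45 and 35 for transcripts of 3 or more exons with no reference. For RefSeq coding transcripts they were 322, 625, 497 and 229. DG thus led in both sets with no reference, and OB led among coding transcripts. Narrow detection was thus shared with the longer exon chains and was not particular to 1 or 2 exons. The median of the highest level was 0.519 FPKM for members and 5.46 for RefSeq coding transcripts. Transcripts near a fixed limit can pass it in fewer libraries whatever their regional pattern, and the part of this was not tested.

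Some of the highest members matched copies of other genes. Of the 14 members that reached 100 FPKM, 4 matched a pseudogene and 3 a ribosomal RNA gene, and of the 77 that reached 10 FPKM, 16 matched a gene of either kind. The Gm29216 locus alone carried between 67.5% and 84.6% of the summed FPKM of all members, depending on the library. Its transcript with an intron of 100 bases, TCONS_00000374, was at 13162 FPKM in SVZ sample 1, 9497 in SVZ sample 2, 9883 in OB, 9313 in DG and 11353 in STR. Its transcript with an intron of 216 bases, TCONS_00000373, was at 7024 FPKM in SVZ sample 2 and 11902 in STR, and was listed at 0 in SVZ sample 1, OB and DG. The groups of libraries in which the second transcript was present and absent therefore did not follow the regions, since the SVZ samples fell on different sides. No transcript of the table lay on the mitochondrial chromosome, and how reads of the mitochondrial mt-Co1 and this locus were shared out was not tested.

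The second most abundant locus, TCONS_00024924, lay on chromosome 5 (mm9, chr5:5781530-5783636, plus strand) with an intron of 81 bases. Its level was 1183 FPKM in SVZ sample 1 and 806 in SVZ sample 2, 1347 in OB, 837 in DG and 761 in STR. GENCODE lists the transcript with the same intron as the lincRNA Gm26825. Its sequence aligned to the opposite strand of Hspa8, the gene of the constitutive heat shock cognate chaperone, with 99.6% identity over 1940 bases. Hspa8 itself was at 457 FPKM in SVZ sample 1 and 622 in SVZ sample 2, 597 in OB, 333 in DG and 550 in STR. The listed level of the copy exceeded that of the coding gene in every library. With sequences this alike and the strand of the reads unknown, the level of either is uncertain. The division of reads between them was not tested.

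A pair of ribosomal protein copies divided their level with the parent gene differently from library to library. TCONS_00029539, a single exon on chromosome 7 (mm9, chr7:121848731-121849749, minus strand), matched Gm15500, which is identical over 1018 bases to Rpl5, the gene of a large-subunit ribosomal protein. It was at 387 and 211 FPKM in SVZ samples 1 and 2, 313 in OB, 327 in DG and 159 in STR. Rpl5 was at 12.6, 77.9, 16.0, 11.4 and 69.9 FPKM in the same order. The copy therefore held between 95.1% and 96.8% of the joint level in SVZ sample 1, OB and DG, and 73.0% and 69.5% in SVZ sample 2 and STR. TCONS_00025352, named after its values were seen, matched Rpl37rt on chromosome 5, a copy of the ribosomal protein gene Rpl37 with 1 mismatch over 344 bases. It was at 286, 114, 285, 202 and 125 FPKM. Rpl37 was at 87.8 FPKM in SVZ sample 2 and 96.1 in STR, and between 2.96 and 3.97 in the other libraries. The copy held 98.97%, 98.96% and 98.1% of the joint level in SVZ sample 1, OB and DG, and 56.6% and 56.5% in SVZ sample 2 and STR. With copies this alike, the level of either gene is uncertain, and the division of reads between them was not tested.

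**Figure D2:**
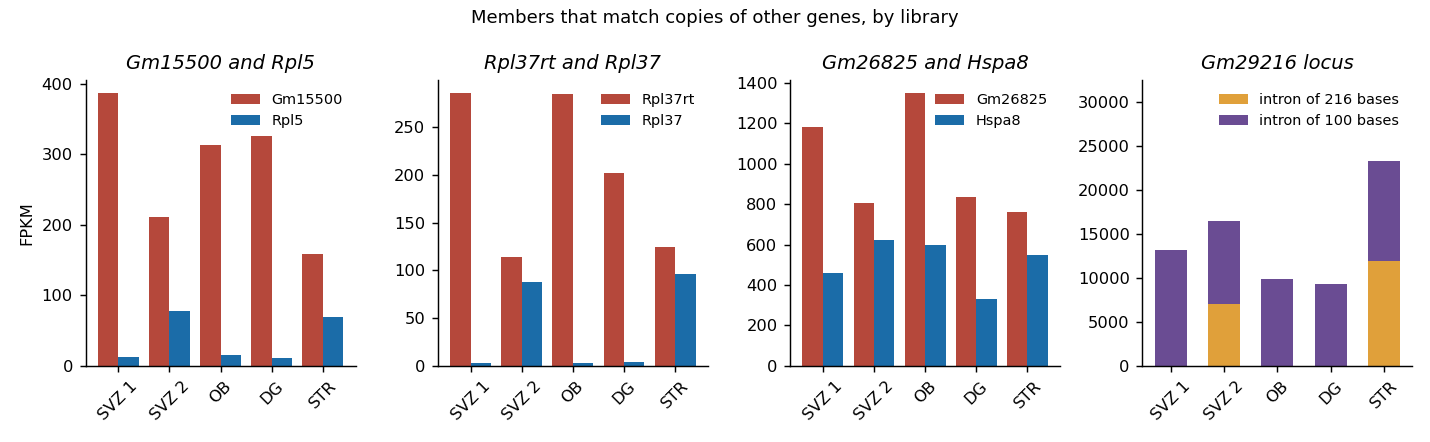
FPKM (y axes, linear from 0) in each library of 3 members and the coding genes they are copies of, and of both transcripts at the Gm29216 locus as stacked bars. In SVZ sample 2 and STR the parents Rpl5 and Rpl37 reach 69.9 to 96.1 FPKM, beside 2.96 to 16.0 FPKM in the other libraries, and the transcript with an intron of 216 bases appears in the same pair of libraries.

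Of the 77 members on pseudogenes, 71 lay on one that aligned to a coding transcript, with a median identity of 91.7% and 22 members at 95% or more. Parents were ribosomal protein genes in 7 cases and mt-Co1 in 2. Of these members 42.9% reached 1 FPKM in any library, beside 20.8% of the lincRNA counterparts.

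A ribosomal RNA locus showed the same kind of change in the leading transcript. It lay on chromosome 17 (mm9, chr17:39983551-39984198, minus strand), overlapped the GENCODE ribosomal RNA gene CT010467.1, and held 3 members with introns of 218, 221 and 238 bases. TCONS_00013589 was at 58.8 FPKM in SVZ sample 1, 195 in OB and 45.6 in DG, and was listed at 0 in SVZ sample 2 and STR. TCONS_00013588 was at 181 FPKM in SVZ sample 2, 0.674 in STR and listed at 0 elsewhere. TCONS_00013587 was at 321 FPKM in STR, 24.7 and 4.33 in the SVZ samples, 2.11 in OB and listed at 0 in DG. Summed over the locus, the levels were 83.5, 185, 197, 45.6 and 322 FPKM in SVZ samples 1 and 2, OB, DG and STR. A region-specific value of 1 of these transcripts is therefore not a region-specific locus. Of 158 loci with several members and at least 1 FPKM, 115 had a leading member that differed between libraries. No such count was made for other loci with several transcripts, so this is not shown to be particular to the members.

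SVZ sample 2 and STR resembled each other across the members more than the SVZ samples did. Over the 782 members at 1 FPKM or more in any library, Pearson's r of log2(FPKM + 1) was 0.906 between SVZ sample 2 and STR and 0.668 between the SVZ samples. RefSeq coding transcripts gave 0.939 and 0.848, so the same order was seen beyond the members. SVZ sample 1 gave 0.779 with OB. These values are across transcripts, which are no independent replicates, and carry no test. At least 1 log2 unit above each of the other 3 libraries in both SVZ sample 2 and STR were 38 members (4.86%), beside 3.92% of all transcripts, 2.92% of RefSeq coding transcripts and 5.16% of transcripts of 3 or more exons with no reference. The reverse held for 15 members (1.92%), beside 5.30%, 5.81% and 1.79%. Matches to pseudogenes made up 13 of the 38 and 0 of the 15, and 33 of all 782 (4.22%). The 38 members were also shorter, with a median of 504 bases against 907 for the 782.

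The most abundant member of the 38 with no counterpart was TCONS_00023044 on chromosome 4 (mm9, chr4:79649429-79650761, minus strand). SVZ sample 2 held it at 289 FPKM and STR at 323, while SVZ sample 1, OB and DG had 0.319, 0.193 and 0.932 FPKM. The most abundant of the 15 was TCONS_00029501, a single exon on chromosome 7 (mm9, chr7:100327493-100328179, minus strand). SVZ sample 1, OB and DG held it at 349, 316 and 266 FPKM, while SVZ sample 2 and STR had 53.4 and 51.2 FPKM. The labels name no batch, and the design text speaks of both paired and single reads without saying which library had which. Every comparison with STR below therefore also compares libraries of these groups, and the part of this in each was not tested.

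**Figure D3:**
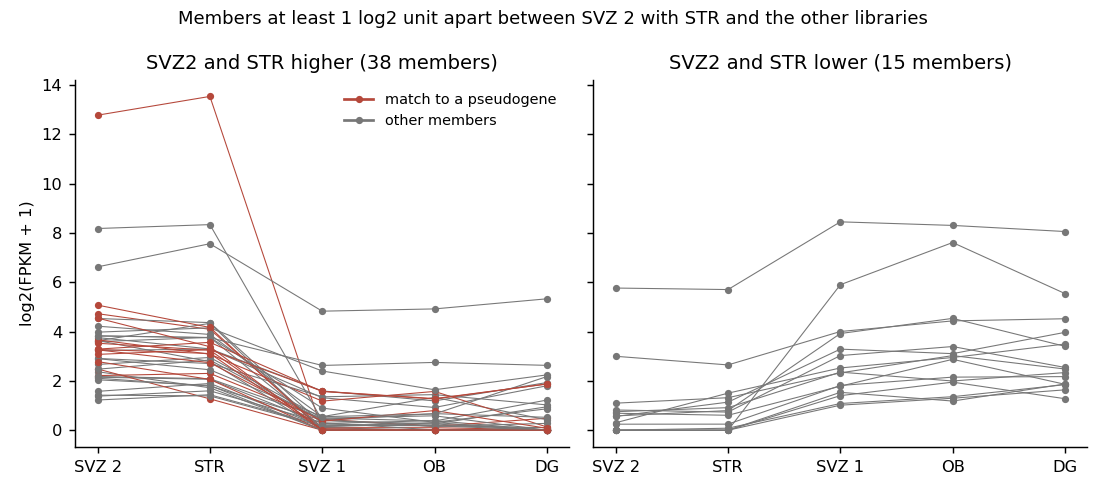
Levels as log2(FPKM + 1) (y axis) of the 38 members that were at least 1 log2 unit above the other libraries in SVZ sample 2 and STR (left) and the 15 that were below (right), 1 line per member, with members on pseudogenes in red. The red lines, 13 in number, are all in the left panel.

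Differences between regions were computed on log2(FPKM + 1), on which the change of low transcripts is understated. The model, limma over all 5 libraries, took its 1 residual degree of freedom from the SVZ pair, and so assumes that the other regions vary as the SVZ samples do. P-values and standard errors then rest on the spread between those samples alone. For each transcript that spread was drawn towards a trend over all transcripts, so the error is not its own SVZ spread. A transcript was tested if a library of either region had it at 1 FPKM or more, and all adjusted p-values are Benjamini-Hochberg values over all such transcripts.

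No member and no other transcript had a limma adjusted p under 0.05 in the comparisons of SVZ, OB and DG with STR or of OB with DG (0.0% called in each). The smallest adjusted p of a member was 0.968, 0.464, 0.465 and 0.408 in that order. At an unadjusted limma p under 0.05 stood 18 members higher and 10 lower of 614 tested in SVZ minus STR, 49 and 55 of 539 in OB minus STR, 66 and 69 of 545 in DG minus STR, and 64 and 56 of 499 in OB minus DG. Over all transcripts the counts were 484 and 223 of 19261, 1279 and 612 of 18844, 929 and 905 of 18254, and 1295 and 646 of 18263. Members were therefore counted by size, with 1 log2 unit as the limit, beside the share of all tested transcripts past the same limit. Those that passed the level filter through a single region were drawn by that rule towards a difference, though not always past the limit. The counts therefore describe the libraries and test nothing.

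Between SVZ and STR, 37 members (6.03%) were 1 log2 unit or more higher in the SVZ, beside 9.93% of all transcripts, and 28 (4.56%) were lower, beside 5.07%. Among members that lay on the same side of STR in both SVZ samples, which leaves out TCONS_00013588 and TCONS_00013589 of the ribosomal RNA locus, the largest difference towards the SVZ was that of 2010001K21Rik (TCONS_00007984, chromosome 13), at 4.22 FPKM in SVZ sample 1 and 2.53 in SVZ sample 2, 0.208 in OB and listed at 0 in DG and STR. Its nearest coding gene, Nhlrc1, which codes for the ubiquitin ligase malin, was at 8.54 FPKM in SVZ sample 1 and 7.13 in SVZ sample 2 and 8.05 in STR, and did not share this pattern. Next among these came Gm17750 (TCONS_00008437, chromosome 13), at 10.4 FPKM in SVZ sample 1 and 3.90 in SVZ sample 2, 15.6 in OB, 8.39 in DG and 0.847 in STR. Its difference from STR was 2.02 ± 0.79 log2 units (SE, n = 2 SVZ samples and 1 STR sample, limma adjusted p = 0.968). The counts depend on the SVZ sample: with SVZ sample 1 alone 105 members were higher and 65 lower, and with SVZ sample 2 alone 31 and 18. The median difference was 0.08 log2 units for members and 0.21 for all transcripts tested, and with median ratio scaling 31 members were higher and 47 lower, so that higher calls made up 39.7% of the calls in place of 56.9%. Over all transcripts that share moved from 66.2% to 50.6%. The members furthest below STR were TCONS_00000373 and TCONS_00013587, from the Gm29216 and ribosomal RNA loci above.

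Between OB and STR, 114 members (21.2%) were higher in OB, beside 30.8% of all transcripts, and 137 (25.4%) were lower, beside 12.9%. Among transcripts of 3 or more exons with no reference the shares were 15.5% and 31.6%, and among coding transcripts 32.6% and 10.5%. The median difference was -0.09 log2 units for members and 0.46 for all transcripts tested, so that relative to the whole table the members lay 0.55 log2 units to the STR side. When the libraries were scaled by median ratios over coding transcripts, 56 members were higher and 190 lower, so that higher calls made up 22.8% of the calls in place of 45.4%. Over all transcripts the same scaling moved that share from 70.4% to 45.4%. Taken in steps between libraries that resemble each other, OB against SVZ sample 1 and SVZ sample 2 against STR, 71 members were higher and 95 lower, a setting chosen after the data were seen. The largest difference towards OB was that of TCONS_00013589 at the ribosomal RNA locus, followed by Gm12688, described below.

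Between DG and STR, 127 members (23.3%) were higher in DG, beside 21.5% of all transcripts, and 169 (31.0%) were lower, beside 16.9%. The median was -0.06 log2 units for members and 0.22 for all transcripts. TCONS_00029230 on chromosome 7 (mm9, chr7:3389808-3391708, minus strand) stood 3.91 ± 0.53 log2 units above STR (SE, n = 2 SVZ samples behind the error and 1 sample each of DG and STR, limma adjusted p = 0.465). Between OB and DG, 121 members (24.2%) were higher in OB, beside 19.5% of all transcripts, and 94 (18.8%) were higher in DG, beside 8.73%. With median ratio scaling the counts were 79 and 114, so that higher calls made up 40.9% in place of 56.3%, while over all transcripts the share moved from 69.0% to 56.6%. The comparisons with STR share that single sample, and their counts are not independent.

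**Figure D4:**
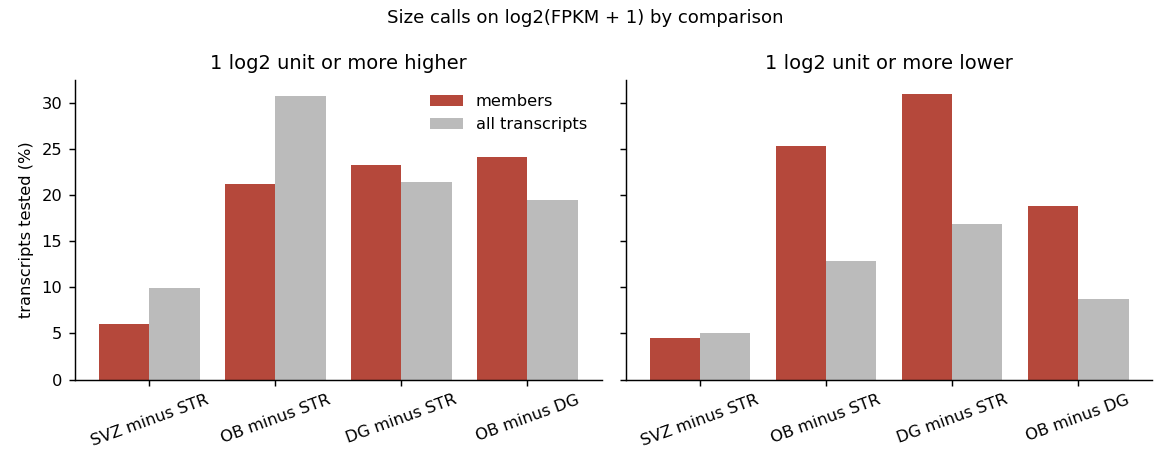
Share of tested transcripts (percent, y axis, from 0) at least 1 log2 unit higher (left) or lower (right) in each comparison, for members in red and all transcripts in grey. Members exceed the grey bars among lower calls in OB minus STR (25.4% against 12.9%), DG minus STR (31.0% against 16.9%) and OB minus DG (18.8% against 8.73%).

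A stricter rule took members at 1 FPKM or more in a region and at least 2 log2 units above each of the other 3. Of 782 members, 9 were enriched in OB (1.15%, beside 1.57% of all 20773 transcripts), 12 in DG (1.53%, beside 1.01%), 5 in STR (0.639%, beside 0.645%) and 1 in the SVZ (0.128%, beside 0.453%). The shares were near those of the whole table. With SVZ sample 1 alone, 17 members were enriched in STR and 3 in the SVZ, and with SVZ sample 2 alone 2 and 1. The SVZ member was TCONS_00013588 of the ribosomal RNA locus, whose level rested on SVZ sample 2. Of the STR members, 3 were high in SVZ sample 2 as well: TCONS_00000373, TCONS_00023044 and TCONS_00006718. TCONS_00009467 on chromosome 14 was at 5.68 FPKM in STR and 0.133 in SVZ sample 2 and listed at 0 elsewhere, while TCONS_00009466, of the same spliced length of 201 bases, was at 0.0156 in STR and 0.132 in SVZ sample 2.

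Some members enriched in OB had a coding neighbour with the same pattern. Gm12688 (TCONS_00023080, mm9, chr4:99320298-99321674, minus strand) started 1316 bases from Foxd3, a forkhead transcription factor gene of the neural crest. In OB it was at 13.1 FPKM and Foxd3 at 15.5 FPKM, and all 4 other libraries listed both at 0. Gm13716 (TCONS_00017309, mm9, chr2:85037089-85038832, plus strand) started 233 bases from Lrrc55, the gene of an accessory subunit of BK potassium channels, on the other strand. It was at 41.7 FPKM in OB and between 3.32 and 4.29 in the other libraries. Lrrc55 was at 49.0 FPKM in OB and between 3.66 and 5.86 elsewhere. The difference of Gm13716 between OB and STR was 3.19 ± 0.48 log2 units (SE, n = 2 SVZ samples behind the error, limma adjusted p = 0.464). OB also held the markers of its own neurons and afferents, Th at 200 FPKM, Calb2 at 656, Cdhr1 at 216, Omp at 187 and Eomes at 50.2, with no other library above 8.28 FPKM for any of the 5. In such tissue samples fewer cells of a type and less RNA per cell cannot be told apart.

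Other OB members went against their neighbours. Gm29521 (TCONS_00034275, chromosome 9) was at 10.3 FPKM in OB and at or below 0.274 elsewhere, with an intron of 20120 bases. The nearest coding start was that of the receptor tyrosine kinase gene Ephb1, 491987 bases away, which was lowest in OB, at 6.37 FPKM against 15.5 to 35.5. TCONS_00008146 on chromosome 13 was at 5.91 FPKM in OB and at or below 0.220 elsewhere, and Cd180, 172380 bases away, stayed between 0.457 and 0.839 FPKM. Of the 9 OB members, 8 had a nearest coding gene above 0, which was itself highest in OB in 3. Over the 757 of the 782 members with such a neighbour, the share was 41.2%.

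Among the 12 members enriched in DG, TCONS_00029230 was the most abundant, at 154 FPKM in DG, 17.3 and 11.2 in the SVZ samples, 19.8 in OB and 9.33 in STR. It overlapped the deposited locus of Cacng8, the gene of a hippocampal accessory subunit of AMPA receptors, on the other strand, with the starts 5498 bases apart. That locus began at the same base as TCONS_00029228, another member beside it, so the start of Cacng8 itself may lie elsewhere. An overlap with the Cacng8 transcript was not checked. Whether the libraries kept the strand is not stated, so reads of any such overlap cannot be assigned to either transcript. Cacng8 was at 118 FPKM in DG and between 28.3 and 67.6 elsewhere, so both were highest in DG. TCONS_00013248 on chromosome 17 was at 8.81 FPKM in DG, 0.455 in STR and listed at 0 elsewhere. Smoc2, a matrix protein gene whose start lay 21591 bases away, was at 41.0 FPKM in DG, 3.03 in OB and at or below 0.223 elsewhere. The dentate granule genes Prox1, C1ql2 and Dsp were at 89.5, 217 and 75.8 FPKM in DG and at or below 5.39 elsewhere.

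Most other DG members were very short. Of the 12, 8 were under 250 bases, beside 6.01% of the 782, and their median length was 233.5 bases against 701 for the OB members. TCONS_00017474 on chromosome 2, of 211 bases with an intron of 32673, was at 9.08 FPKM in DG and listed at 0 in the other libraries, and Pax1, the nearest coding gene, was at or below 0.0685 FPKM throughout. TCONS_00022575 on chromosome 4, of 314 bases, was at 9.83 FPKM in DG and at or below 0.147 elsewhere, and its locus summed to 17.99 FPKM in DG and 3.33 and 0.158 in the SVZ samples. The nearest coding gene was highest in DG for 6 of the 12 members, and for 19.3% of the 757 members with a neighbour above 0. The short length and the low-value behaviour of the DG library moved with these calls, and their part was not tested.

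**Figure D5:**
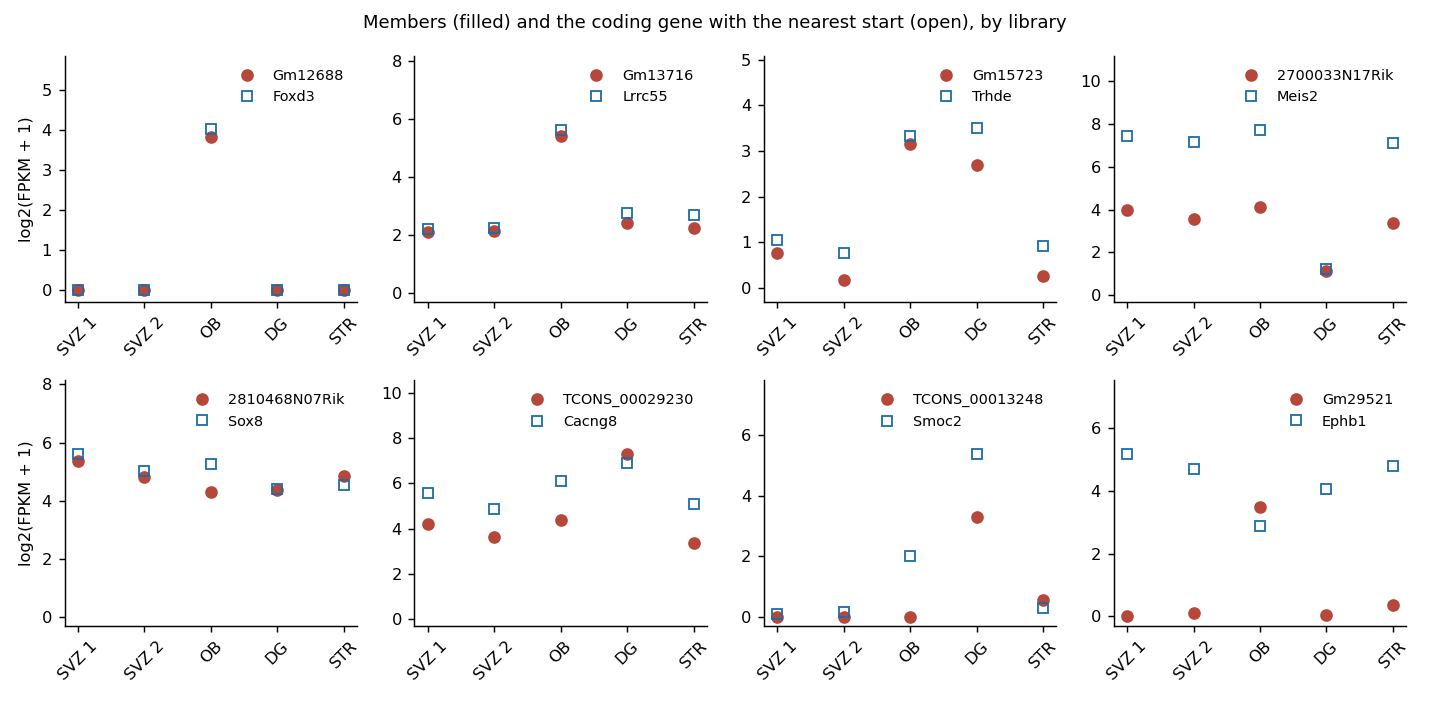
Levels as log2(FPKM + 1) (y axes) in the 5 libraries of 8 members (filled circles) and of the coding gene with the nearest start (open squares). Gm12688 and Foxd3, Gm13716 and Lrrc55, and 2700033N17Rik and Meis2 have their highest values in the same library, while Gm29521 is highest in OB where Ephb1 is lowest.

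A start within 1000 bases of a coding start on the other strand, here called divergent, was found for 238 members (9.54%). They lay at 212 coding genes with a median distance of 173 bases, and which way the starts pointed was not checked. These members were detected more often: 94 (39.5%) reached 1 FPKM in any library. Of the 2019 members that neither overlapped nor followed a coding gene and had no such start, 606 did. Of the 153 members that began within 5000 bases downstream of a coding gene on its strand, 38.6% did, and of the 94 that overlapped one on the other strand, 28.7%. The coding partners were well expressed: 223 of the 238 pairs had a partner at 1 FPKM or more in some library, and the median of the partners' highest level was 19.9 FPKM beside 7.92 for all coding genes. The partner exceeded the member in every library in 213 pairs.

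The 5 most abundant divergent members were those of Lrrc55, Sox8, Prdm16, Myl6b and Trhde. At Sox8, an HMG-box transcription factor gene of the oligodendrocyte lineage, 2810468N07Rik (TCONS_00013290, mm9, chr17:25707861-25711979, plus strand) was at 40.5 FPKM in SVZ sample 1 and 26.9 in SVZ sample 2, 18.9 in OB, 19.6 in DG and 27.99 in STR. Sox8 was at 47.9, 31.5, 37.1, 20.2 and 22.3 FPKM. The member was below the gene in every library but STR, where it exceeded it. At Trhde, whose enzyme degrades thyrotropin-releasing hormone, Gm15723 (TCONS_00002294, mm9, chr10:114238782-114253887, plus strand) was at 0.707 FPKM in SVZ sample 1 and 0.131 in SVZ sample 2, 7.93 in OB, 5.47 in DG and 0.199 in STR. Trhde was at 1.07, 0.707, 9.09, 10.3 and 0.889 FPKM, and both were above 5 FPKM in OB and DG and at or below 1.07 in the other 3 libraries. The OB minus STR difference of Gm15723 was 2.90 ± 0.55 log2 units (SE, limma adjusted p = 0.464). At Prdm16, a zinc finger gene of neural stem cells, Gm13111 was at 11.4, 10.4, 7.96, 4.70 and 5.34 FPKM, above Prdm16 at 5.06, 3.24, 2.50, 2.47 and 2.17 in each library. At Myl6b, a myosin light chain gene, A430046D13Rik was highest in DG, at 10.5 FPKM, and between 4.30 and 7.13 elsewhere.

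RefSeq promoter windows of 300 bases, from 250 before to 50 after the gene start (GRCm38.p6), were found for 177 of the 212 partners (83.5%). The windows held a median of 23 CG pairs, with 80.2% at 15 or more. Over 16064 coding genes the median was 15 and the share 50.2%, and over all 27025 promoters 7 and 35.2%. CG was counted on the strand of the gene and reads the same on the other strand. The windows of Sox8 and Lrrc55 are shown because their members are among the most abundant of these pairs and their counts differ, with 21 and 4 CG pairs in capitals, at chr17:25570637-25570936 and chr2:85198701-85199000, both on the minus strand.
Sox8: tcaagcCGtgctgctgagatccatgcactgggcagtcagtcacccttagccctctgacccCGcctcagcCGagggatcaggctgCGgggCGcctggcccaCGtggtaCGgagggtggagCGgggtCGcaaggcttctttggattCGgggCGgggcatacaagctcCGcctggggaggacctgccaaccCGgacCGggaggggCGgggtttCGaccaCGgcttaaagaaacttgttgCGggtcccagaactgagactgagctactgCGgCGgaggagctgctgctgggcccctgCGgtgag
Lrrc55: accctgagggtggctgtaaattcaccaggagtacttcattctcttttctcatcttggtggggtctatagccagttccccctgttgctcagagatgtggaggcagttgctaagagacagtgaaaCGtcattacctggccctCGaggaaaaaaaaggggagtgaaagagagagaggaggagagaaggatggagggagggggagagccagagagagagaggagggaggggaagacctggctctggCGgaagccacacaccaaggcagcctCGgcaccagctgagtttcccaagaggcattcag

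Sox8 and its member were at 18.9 FPKM or more in all 5 libraries. Lrrc55 and Gm13716, at the CG-poor window, were above 10 FPKM in OB alone, but at 3.32 FPKM or more in every library. The windows of Trhde and Foxd3 held 19 and 25 CG pairs. These genes, too, were above 10 FPKM in a single library, Trhde in DG (10.3 FPKM) and Foxd3 in OB (15.5 FPKM). A link between CG pairs and the number of libraries was not tested.

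Members near transcription factor genes of the neural lineages were counted from a list of 228 genes, 221 of them in the table. For 51 members (2.04%) the nearest coding start within 50000 bases was that of a list gene, at 38 genes. This is 3.4% of the 1498 members with any coding start in that distance, while the list makes up 1.08% of 20340 coding genes. Of the 51, 21 (41.2%) reached 1 FPKM in any library, beside 31.3% of all members. No test was made of either share.

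Of these members, 2700033N17Rik (TCONS_00017850, mm9, chr2:115891954-115893180, minus strand) started 2386 bases from Meis2, a homeobox gene of striatal and olfactory bulb neurons. It was at 14.6 FPKM in SVZ sample 1 and 10.7 in SVZ sample 2, 16.3 in OB, 1.202 in DG and 9.26 in STR. Meis2 was at 171, 143, 207, 1.35 and 135 FPKM, and both were lowest in DG and highest in OB. The DG minus STR difference of the member was -2.22 ± 0.52 log2 units (SE, limma adjusted p = 0.482). Gm12063, 1497 bases from Bcl11a, a zinc finger gene of cortical and hippocampal neurons, was at 2.45, 0.612, 6.34, 2.64 and 0.522 FPKM, beside 33.3, 24.2, 71.8, 43.3 and 20.6 for Bcl11a. Both had OB highest, DG next and STR lowest. Gm11266, 2708 bases from the nuclear factor gene Nfib, was at 3.85, 4.48, 1.54, 3.47 and 1.67 FPKM. Nfib was highest in DG, at 42.6 FPKM, where its member was not.

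Near Nr2f1, an orphan nuclear receptor gene of cortical patterning, the 3 members of a locus on chromosome 13 matched A830082K12Rik and had their highest level in 3 different libraries. TCONS_00008113 overlapped the deposited extent of the Nr2f1 locus on the other strand, with the starts 34011 bases apart. Such an extent can take in neighbouring transcripts, so the start of Nr2f1 itself may lie elsewhere, and an overlap with its transcript was not checked. Whether the libraries kept the strand is not stated, so reads of any such overlap cannot be assigned to either transcript. TCONS_00008113 was at 1.36, 0.541, 4.13, 2.91 and 0.506 FPKM in SVZ samples 1 and 2, OB, DG and STR. Nr2f1 was at 9.14, 5.08, 30.6, 27.2 and 3.48 FPKM, in the same order of libraries. TCONS_00008109, with an intron of 76 bases, also overlapped that deposited extent on the other strand, with the starts 36826 bases apart. It was instead highest in SVZ sample 2, at 3.35 FPKM, and lowest in SVZ sample 1, at 0.473. TCONS_00008110, with an intron of 31386 bases, was highest in DG, at 3.18 FPKM. The locus summed to 2.93, 4.21, 6.57, 8.53 and 1.95 FPKM, so that the locus as a whole was highest in DG and Nr2f1 in OB.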

How the data were processed

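Polyadenylated RNA was sequenced in 2 SVZ samples and in single samples of OB, DG and STR. The deposited FPKM values were computed by the authors; the submitters' processing notes name CASAVA, TopHat 1.2.0, Cufflinks 1.0.0 and mm9, without roles. Members were catalogue transcripts of at least 200 bases, no more than 2 exons in the deposited annotation and no reference. Members and lists were chosen with earlier results of these data known.

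Differences were computed on log2(FPKM + 1) with limma 3.58.1 (R 4.3.3, empirical Bayes with trend, Benjamini-Hochberg adjustment over the transcripts that reached 1 FPKM in either region), which was tested on simulated data. The read depth is unknown and no counting interval is given. Positions are mm9 as deposited, counted from 1; the GENCODE M21 transcripts are on GRCm38 and were matched by intron length and distance to flanking coding genes (within 5000 bases) without converting coordinates. Pseudogenes were aligned to coding transcripts with blastn 2.17.0.

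Members named were the 5 highest, the 4 most enriched per region, the 2 most different each way from STR (for the SVZ, on the same side in both samples), the extremes of length and span, the 5 highest divergent members and up to 8 near listed transcription factor genes. Alternatives were a pseudocount of 0.1, no level filter, a threshold of 0.5 FPKM, other size limits, median ratio scaling, sums per locus, each SVZ sample alone and steps through the SVZ.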

Additional observations from a re-analysis of the deposited data

How the results depend on the processing

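The counts of members by size depended most on the size limit and on the handling of low values. For SVZ minus STR, 37 members higher and 28 lower became 127 and 93 with a pseudocount of 0.1 and 4 and 5 at 2 log2 units, and 47 were lower after median ratio scaling; leaving out either SVZ sample gave 31 to 105 higher and 18 to 65 lower. For OB minus STR, 114 higher became 56 with scaling, 18 at 2 log2 units and 71 in steps through the SVZ, and 137 lower became 42 at 2 log2 units. For DG minus STR, 127 higher and 169 lower became 30 and 46 at 2 log2 units. For OB minus DG, 121 higher became 79 with scaling and 19 at 2 log2 units, and 94 lower became 157 with a pseudocount of 0.1 and 23 at 2 log2 units. Enriched members at a pseudocount of 0.1 numbered 35 in the SVZ, 43 in OB, 38 in DG and 23 in STR, in place of 1, 9, 12 and 5, and at a limit of 1 log2 unit 19, 40, 53 and 24. Summed per locus they were 0 in the SVZ and 3 in STR, scaling gave 8 in STR, and leaving out either SVZ sample gave 1 to 3 in the SVZ and 2 to 17 in STR. At 0.5 FPKM, 775 members passed in the SVZ mean, 679 in OB and 664 in STR, in place of 423, 352 and 385. The cause was not tested in any of these. Dropping the level filter could not change the 12 counts it was applied to. A difference of 1 log2 unit on log2(FPKM + 1) already needs 1 FPKM or more in the higher region, so this setting is no check. No paired analysis was possible because OB, DG and STR have 1 sample each and share fewer than 2 replicate numbers with the SVZ. The unknown depth limits every statement on low members: a transcript listed at 0 may be present below the depth of its library, and with 1 sample in 3 of the 4 regions no difference between regions has a replicate check of its own.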
